A study of Mus musculus with 12 samples.

Results

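TM3 cells, an established line derived from Leydig cells of the immature mouse testis, were exposed for 8 h to culture medium containing 5 mM methoxyacetic acid (MAA), and their RNA was hybridized on 2 arrays against RNA of TM3 cells that had spent the same 8 h in medium alone. These 2 arrays, of 12 in all, are the subject here and were chosen by their labels. The other arrays held 5 mM MAA for 3 h or 24 h, and 1 mM for 3 h, for 8 h or for 24 h, with 2 arrays for each condition and controls of the same time. Every RNA was a pool of 3 cultures, and the MAA-treated cells on the second array came from a separate pool. The dyes were exchanged between the arrays: MAA-treated cells gave the green signal of replicate 1 and the red signal of replicate 2. The comparison asks which transcripts of a Leydig cell line differ in level after 8 h at the higher of the concentrations. TM3 is a cell line grown without the other cells of the testis, and a pool hides the spread between its cultures, so the p-values given here measure the spread between pools and arrays.

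MAA is formed in the body by oxidation of ethylene glycol monomethyl ether, an industrial solvent that harms the testis, and it is known as an inhibitor of histone deacetylases, the enzymes that remove acetyl groups from histones. Leydig cells lie between the seminiferous tubules, carry receptors for luteinizing hormone and turn cholesterol into testosterone. They also exchange paracrine signals with Sertoli cells, peritubular cells and macrophages, among them hedgehog ligands, growth factors, prostaglandins and cytokines.

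Each array carried 45018 spots, of which 1639 were controls, and the 43379 others represent 41174 probes. The median signal, in arbitrary units after background subtraction, was 127 in the MAA channel and 129 in the control channel of replicate 1, and 115 in each channel of replicate 2. With the flags of its spots averaged for each probe, 67.8% of probes on replicate 1 were well above background in the MAA channel. In its control channel the share was 66.0%, and on replicate 2 the shares were 62.2% and 63.3%. No probe counted as saturated by its averaged flags (0 on either array). A patch of 54 spots on replicate 1 had log2 ratios with an SD of 2.21, against 0.600 in the spots around it, and 0.568 against 0.610 at the same place on replicate 2. These spots were left out on both arrays. For the 24585 probes well above background in every channel, the median log2 ratio of MAA over control was -0.01 on each array and the Pearson correlation of the arrays across probes was 0.879. Over all 41101 probes tested the medians were -0.10 and 0.15 and the correlation 0.637. Probes are not independent replicates, and whether the arrays shared a control pool is not stated.

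After 8 h in 5 mM MAA, TM3 cells held more RNA of a glucose transporter (Slc2a4), of the enzyme that starts tetrahydrobiopterin synthesis (Gch1), of the chemokine Cxcl10 and of the growth factor amphiregulin (Areg). They held less RNA of the vessel growth factor Angpt2, of the transcription factor Cebpd, of the flavin monooxygenase Fmo1 and of most measured protocadherins of the beta cluster. A probe was called changed when limma gave an unadjusted p under 0.005 and the change was over 2-fold. By this rule 2282 of 41101 probes were called (5.55%), 1258 of them up (3.06%) and 1024 down (2.49%). With 1 probe for each gene, that of the highest mean signal, 653 of 15983 genes were up (4.09%) and 392 were down (2.45%), and the median log2 ratio over all genes was -0.02. Levels are of bulk RNA, so a change in the share of cells making a transcript and a change in RNA per cell cannot be told apart.

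The ratio had the same sign on both arrays for all 2282 called probes. The rule for a call forces this, since opposite signs would make the spread too large for the p threshold. Of these probes, 1839 (80.6%) were over 2-fold on each array. Changes over 4-fold were called for 238 probes up and 113 down, and over 8-fold for 25 up and 12 down. The largest Benjamini-Hochberg adjusted p among the calls was 0.0202. Among the called increases 248 had a control signal not well above background on either array, among the decreases 124 had such an MAA signal, and 96 calls were above background in neither channel. A group of 37 genes was over 2-fold higher in the red channel on both arrays, which puts them in opposite directions as MAA over control, and 4 genes were over 2-fold higher in the green channel on both. None of the genes called (0 of 1045) had opposite signs on the arrays, which again follows from the rule. With normexp background correction (offset 50) and loess, which draws the ratios of dim probes toward 0, 1029 probes were called, 535 up and 494 down, and 1020 of them were among the 2282. Of the 194 called genes that the naming rule picks, 118 were called in that setting and none (0) changed direction. Without replicate 1 or 2 the condition has 1 array, and the spread comes from the pairs of the other conditions. Where a call at 8 h was lost in this way and only the adjusted p is given, the log2 ratio stayed over 1 in size. Where a count of 0 is given for a list, the number at an unadjusted p under 0.05 in limma follows; over all genes 23.6% were higher and 20.2% lower at that p.

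**Figure D1:**
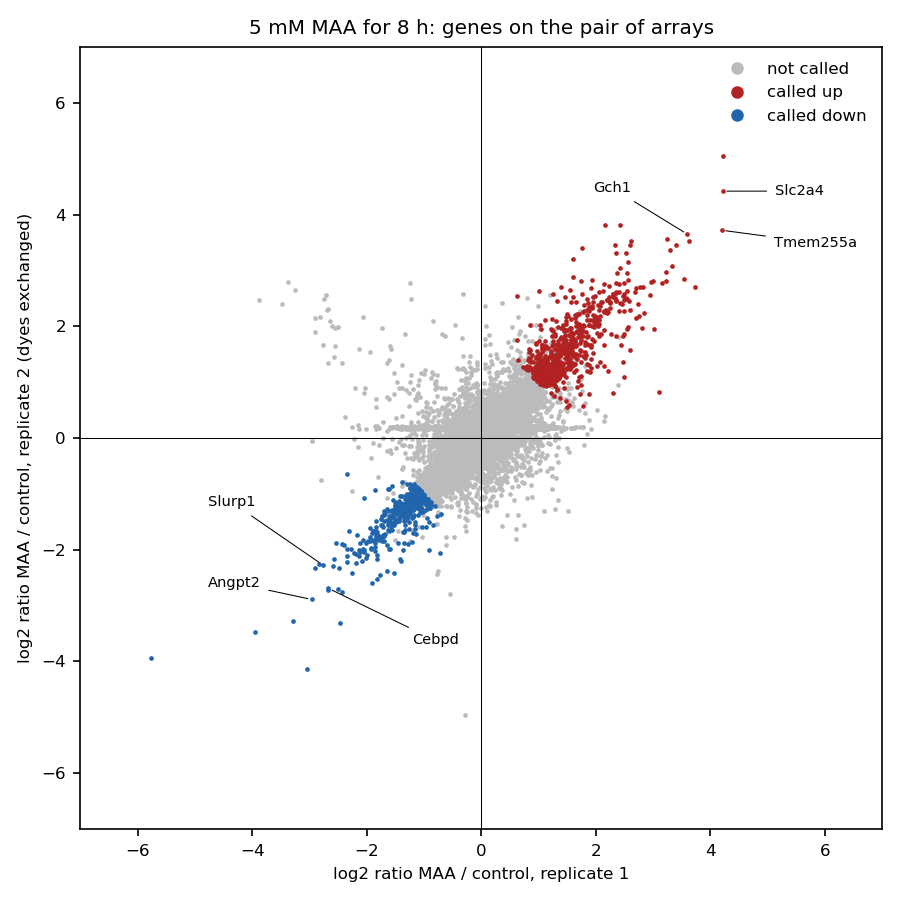
Each dot is a gene (1 probe per gene), with its log2 ratio of MAA over control on replicate 1 on the horizontal axis and on replicate 2, with the dyes exchanged, on the vertical axis. Red dots were called up, blue dots called down and grey dots not called. Called genes lie in the quadrants where both arrays have the same sign, which the rule for a call forces. The grey dots at upper left are genes brighter in the red channel on both arrays.

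Among genes well above background in every channel, the largest increase was that of Slc2a4, the insulin-responsive glucose transporter, with signals of 2030 and 1730 in the MAA channels against 109 and 80.8 in the control channels (replicates 1 and 2, in this order throughout). Its log2 ratio was 4.32 (SE 0.151, n = 2 arrays, limma adjusted p = 6.74e-06). Both MAA signals lay far above both control signals, as in each of the increases described next. Tmem255a, which encodes a transmembrane protein, had signals of 547 and 455 in the MAA channels against 29.8 and 34.6 in the control channels and a log2 ratio of 3.96, whereas a second probe of the gene had 0.57 and was not called. Gch1, GTP cyclohydrolase 1, had signals of 2100 and 1800 in the MAA channels against 174 and 143 in the control channels, a log2 ratio of 3.62 (SE 0.0683, adjusted p = 1.3e-06) and a second probe at 2.31. Cxcl10, a chemokine that attracts T cells through the receptor CXCR3, was brighter, at 6030 and 5540 in the MAA channels against 488 and 483 in the control channels, with a log2 ratio of 3.57 (SE 0.0745, adjusted p = 1.3e-06). Areg, a ligand of the epidermal growth factor receptor, stood at 1520 and 1370 in the MAA channels against 160 and 116 in the control channels, and its log2 ratio was 3.40.

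The other large increases were of genes with separate roles. They were Prtn3, a serine protease of neutrophil granules (3.43), Srgn, a proteoglycan of secretory granules (3.11), Mro (3.02), Abhd3, a phospholipid hydrolase (2.97), and Lmod1, an actin nucleator of smooth muscle (2.88). Lmod1 was dim in the control channels, at 38.2 and 38.5. Abhd3 was bright, at 7130 and 6690 in the MAA channels against 797 and 973 in the control channels. All were over 2-fold on both arrays, and their standard errors ranged from 0.095 for Mro to 0.349 for Lmod1.

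The largest decrease among genes measured in every channel was that of Angpt2, angiopoietin 2, a ligand of the endothelial receptor Tek, with signals of 61.1 and 55.5 in the MAA channels against 477 and 412 in the control channels. Its log2 ratio was -2.93 (SE 0.119, adjusted p = 9.66e-06). Cebpd, a leucine zipper transcription factor, had signals of 4730 and 4640 in the MAA channels against 30100 and 29900 in the control channels and a log2 ratio of -2.68 (SE 0.124, adjusted p = 1.32e-05). MAA and control signals did not overlap in either gene. Abca9, a transporter of the ABC family, had -2.61, and its other 2 probes were also called down, with MAA signals not well above background on either array. Slurp1, a secreted protein of the Ly6 family, had -2.52, Ggt5, a gamma-glutamyltransferase that acts on leukotriene C4, -2.41, Fam180a -2.38 and Evi2a -2.33. Ddc, the decarboxylase that makes dopamine and serotonin, had signals of 1670 and 1650 in the MAA channels against 8470 and 7170 in the control channels and a log2 ratio of -2.23. The copper amine oxidase Aoc3 had -2.44 (SE 0.44, adjusted p = 0.0042), a call that was lost without replicate 1 (-2.29, adjusted p = 0.0593) and without replicate 2 (-2.59, adjusted p = 0.0398).

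**Figure D2:**
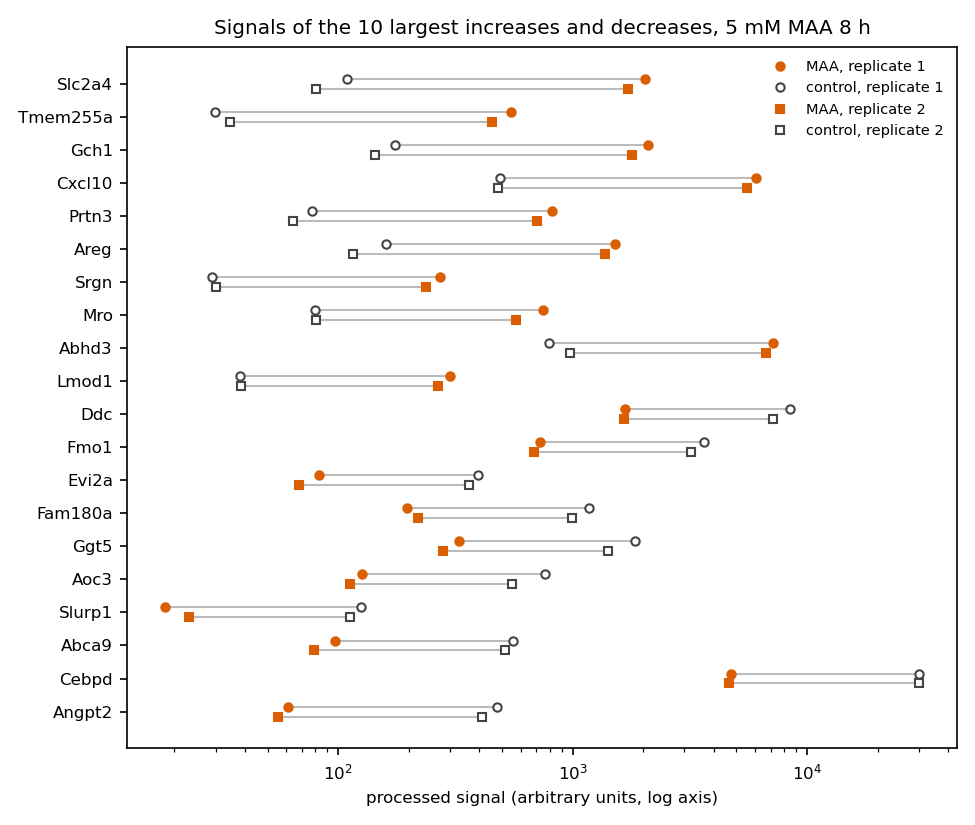
Processed signal (arbitrary units, log axis) of the 10 largest increases and the 10 largest decreases among genes well above background in every channel, with filled markers for MAA and open markers for control, circles for replicate 1 and squares for replicate 2. A grey line joins the channels of an array, and the filled markers lie to the right of the open ones in the upper 10 genes and to the left in the lower 10 on both arrays.

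Some changes started from or ended in a signal that on neither array was well above background. Their fold is given as a lower limit, "at least N-fold": the mean of the brighter channel was set against the lowest signal well above background, or the dim signal itself where that was higher, on log2 values scaled between channels. The largest such increase was that of Dhh, desert hedgehog, which Sertoli cells secrete and Leydig cell precursors sense through the receptor patched. Its signals were 246 and 215 in the MAA channels against 13.3 and 6.49 in the control channels, at least 14.4-fold higher (adjusted p = 2.55e-05). Next were Mgarp, a mitochondrial protein (at least 7.74-fold), the transferrin receptor Tfr2 (5.45), the lysosomal peptide transporter Abcb9 (4.76) and the adaptor protein Grb7 (4.37). Of the decreases, osteomodulin (Omd), a proteoglycan of the matrix, was at least 10.1-fold lower, with 3.23 and 9.54 in the MAA channels against 175 and 147 in the control channels, and the angiotensin II receptor Agtr2 at least 5.95-fold lower. Tmem178 was at least 3.21-fold and the plasma protein Orm2 at least 3.52-fold lower, and the call of Orm2 was lost with normexp and loess, without replicate 1 (adjusted p = 0.0969) and without replicate 2 (0.0381).

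Because Dhh was near background in the control channel of both arrays and clear in both MAA channels, the 250 bases before its start are shown, from RefSeq for mouse build GRCm38.p6 (chr15:98898541-98898790, minus strand, read in the direction of the gene). Capitals here and in the later sequences mark matches, on either strand, to any of 7 motifs: the GC box (GGGCGG), the CCAAT box, the TATA box (TATAAA), the AP-1 site (TGANTCA), the cAMP response element (TGACGTCA), the histone H1 box (AAACACA) and the core of the interferon response element, which is GAAA and again GAAA after any pair of bases.
Dhh: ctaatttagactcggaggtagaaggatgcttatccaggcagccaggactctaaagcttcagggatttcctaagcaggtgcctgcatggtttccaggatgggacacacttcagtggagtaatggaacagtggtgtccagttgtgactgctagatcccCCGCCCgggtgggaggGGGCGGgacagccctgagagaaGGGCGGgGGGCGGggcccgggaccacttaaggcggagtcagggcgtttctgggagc
The window held 4 copies of the GC box and none of the other motifs. A GC box was found in 32.7% of 32841 such windows of 27018 genes, and a match is a description of letters and not of a site in use.

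The Leydig label of the line was set against markers of testicular cells. Of 9 Leydig markers, 3 were well above background in the control channel of both arrays, 5 were in neither channel of either array and none (0) was called by limma, with 1 higher and 1 lower at an unadjusted p under 0.05. Insl3, the insulin-like hormone of Leydig cells, had 357 and 321 in the MAA channels against 648 and 473 in the control channels and a log2 ratio of -0.71. Star, which brings cholesterol into mitochondria, had 204 and 157 with MAA and 104 and 126 without, and Cyp17a1, an enzyme of androgen synthesis, 86.3 and 115 with MAA and 87.7 and 89.5 without. The defining enzymes and receptor Cyp11a1, Hsd3b1, Hsd3b6, Hsd17b3 and Lhcgr were not well above background, so on these arrays the line lacked a measurable signal of side-chain cleavage and of the luteinizing hormone receptor. The summed control signals of the 9 markers were 890 and 730, and the MAA signals 696 and 637. Nr5a1, the remaining marker, a nuclear receptor that drives steroidogenic genes, had a log2 ratio of -0.14 and was not called.

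Markers of other cells were present as well, and their part in the changes was not tested. Signals are summed here over different probes, so the sums of a cell type serve to set MAA beside control and not to rank cell types. Peritubular and fibroblast markers had summed control signals of 729000 and 664000 and MAA signals of 610000 and 544000, and 2 of 11 were called up: Cnn1, calponin 1 (1.19), and the surface protein Thy1 (at least 2.94-fold), with no call without replicate 1 (adjusted p = 0.0888) or without replicate 2 (0.131), and a second probe that was not called. At an unadjusted p under 0.05, 4 of the 11 were higher and 4 lower, among them Pdgfra (-0.97), which was called down without replicate 1 (-1.05). The brightest of the 11 was Col1a2, and their median log2 ratio was 0.17 (0.01 with normexp and loess). Of 9 Sertoli markers 2 were called up, Dhh and clusterin (Clu, 1.58), and the Sertoli sums were 14700 and 13700 in control and 14800 and 13000 with MAA. Among 7 germ cell markers Stra8 was called up (at least 2.06-fold), a call lost without replicate 1 (adjusted p = 0.0792) or replicate 2 (0.0910). Their sums were 864 and 1010 in control and 939 and 893 with MAA. Macrophage markers gave 1610 and 1360 in control and 679 and 655 with MAA. In this sum Cd14 had 410 and 387 with MAA and 1240 and 1030 without, and Lyz2, which was not called (-0.38), 259 and 253 with MAA and 354 and 312 without, while Ptprc, Itgam and Adgre1 were not well above background. Endothelial markers (0 of 7 called in limma, 1 lower at an unadjusted p under 0.05, 5 in neither channel) summed to 86.1 and 48.0 in control and 72.7 and 40.8 with MAA. Of 5 neuronal markers 0 were called (1 higher at an unadjusted p under 0.05), and the sums were 599 and 530 in control and 817 and 777 with MAA. In limma at an adjusted p under 0.05 and over 2-fold, Tek was also called down (adjusted p = 0.0311), with an MAA signal not well above background on either array.

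Genes of steroid synthesis, counted with the 9 Leydig markers, were mostly within the threshold. Of 28 measured, 2 were up and 2 down, with a median log2 ratio of -0.04. Shbg, a binding protein for sex steroids, rose (1.92), as did Hsd17b1, which reduces estrone to estradiol (1.30). The transcription factor Gata6 fell (-1.31, with 1 other probe called at -1.13 and 1 not called at -0.40) and so did Hsd17b11 (-1.09). Por, which passes electrons to microsomal cytochromes, had 0.90, Cyb5a 0.00 and the mitochondrial outer membrane protein Tspo -0.15, none of them called. In cholesterol synthesis and uptake 0 of 33 genes were up (5 at an unadjusted p under 0.05) and 1 was down, Insig1, which retains the regulator of the pathway in the endoplasmic reticulum (-1.13, with another probe at -0.86 that was not called). The 19 enzymes of synthesis had a median of -0.34 and no call (0 by limma), although 13 were lower and 0 higher at an unadjusted p under 0.05, with -0.71 for Hmgcs1, -0.64 for Msmo1 and 0.07 for Sqle. Shbg and Hsd17b1 fell under 2-fold with normexp and loess, at 0.88 and 0.66.

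**Figure D3:**
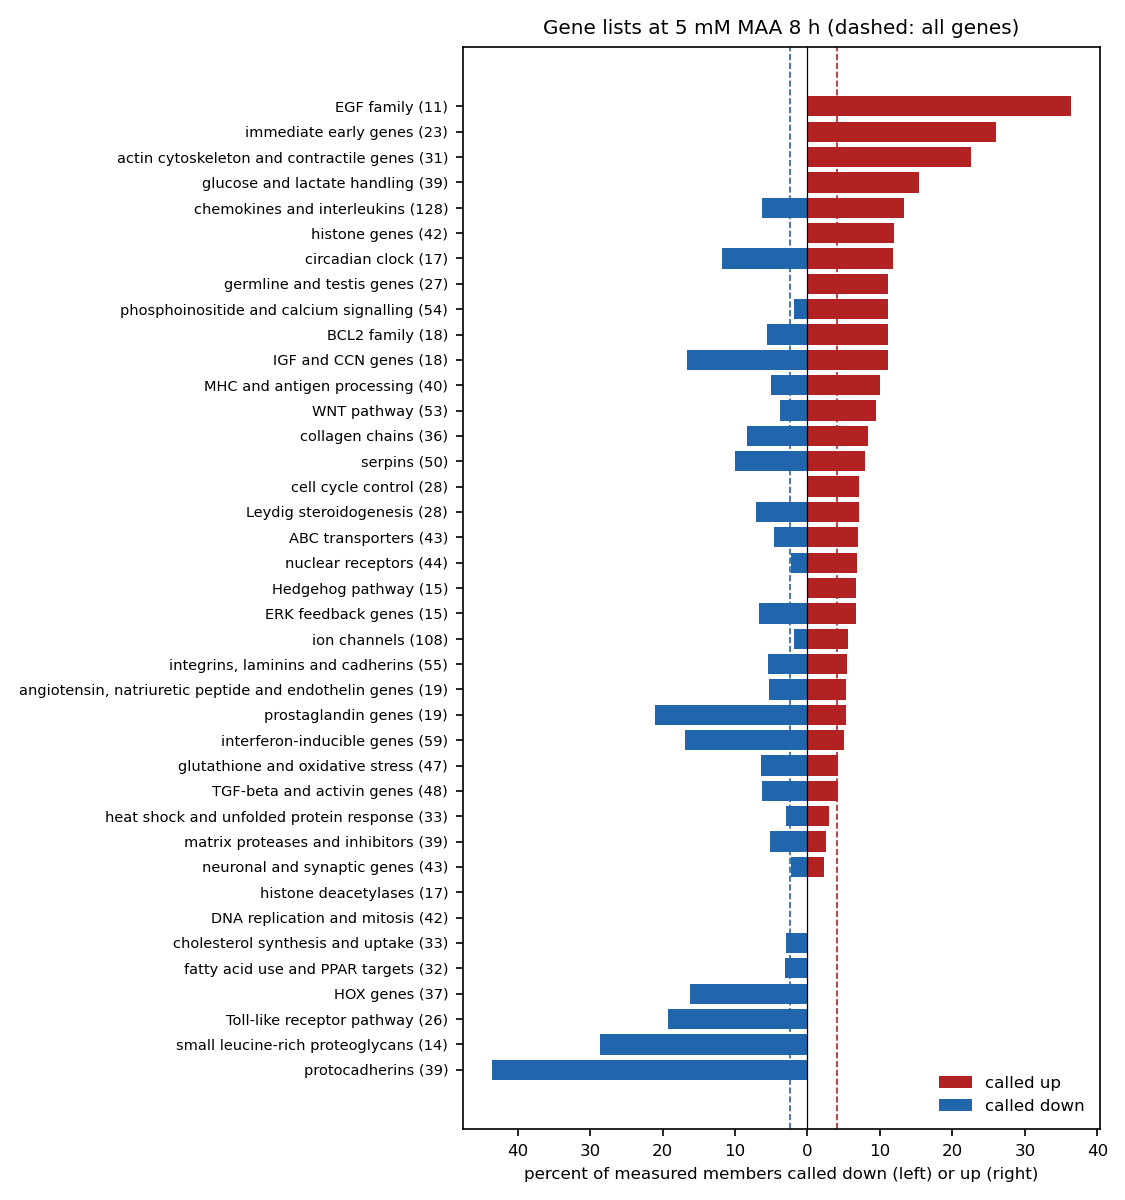
Percent of the measured members of each gene list called up (red, to the right) or down (blue, to the left), with the number of members measured in brackets. Dashed lines mark the shares over all genes, 4.09% up and 2.45% down; protocadherins have the longest bar to the left and the EGF family the longest to the right.

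Growth factor signalling genes were called only upward in the EGF family and in both directions among the WNT, TGF-beta and IGF genes. Among the epidermal growth factor ligands and receptors 4 of 11 genes were up and none (0) down by limma (3 at an unadjusted p under 0.05), with a median of 0.30 against -0.02 over all genes, or 0.06 against 0.01 with normexp and loess. Beside Areg, the ligands Hbegf (1.26) and Tgfa (at least 2.17-fold, a second probe at 0.80 not called) were called up, while Ereg had -0.19 and Egf -0.27. The receptor Erbb3 was called up (1.62, control well above background on 1 array), and Egfr had -0.56. Of the other probes of Erbb3, those at 1.24 and 0.62 were not called and that at 2.17 was. The count was 2 without replicate 2, where Tgfa (adjusted p = 0.0381) and Erbb3 (0.0933) were lost, and 2 with normexp and loess. Erbb3 was also lost without replicate 1 (adjusted p = 0.0561).

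Immediate early genes, which respond fastest to growth signals and mostly encode transcription factors, had 6 of 23 members up, none (0) down in limma (2 at an unadjusted p under 0.05) and a median of 0.41. Fos (1.77), Egr2 (1.63), Ier3 (1.26), Jun (1.16), Atf3 (1.11) and Nr4a1 (1.06) were called, and Ier5 (0.96), Klf4 (0.83) and Jund (0.71) were not. Atf3 fell just under 2-fold without replicate 2 (0.98). Of 15 feedback genes of the ERK cascade 1 was up, the phosphatase Dusp14 (1.36), and 1 down, the inhibitor Spry4 (-1.16). Dusp6, a phosphatase of ERK itself, had 0.00, Dusp16 0.33 and Spry1 0.55. Spry4 was lost without replicate 1 (adjusted p = 0.0960) and without replicate 2 (0.163), with normexp and loess, with the deposited values, with the slide as a block and in the 6 arrays at 5 mM alone, and a second probe of it had -0.19.

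In the hedgehog pathway only the ligand Dhh was called among 15 genes (1 up, 0 down in limma, 6 lower at an unadjusted p under 0.05, median -0.21). The transducer Smo had -0.94, the coreceptor Gas1 -0.65 and Disp1, which releases the ligand, -0.03. Of 53 WNT pathway genes 5 were up and 2 down (median 0.12). Notum, an enzyme that inactivates WNT ligands, rose by 2.98 on the log2 scale, with its control well above background on 1 array, and the ligands Wnt6 (at least 2.74-fold) and Wnt11 (1.02), the agonist Rspo1 (at least 3.7-fold) and the transcription factor Tcf7 (1.13, a second probe at 0.77 not called) were also called up. The receptor Fzd1 (-1.39) and the secreted antagonist Sfrp2 (-1.32) fell, while Fzd7 (0.02), Fzd2 (-0.55) and Tcf7l1 (0.12) were not called. Wnt11 was named after its value was seen and was under 2-fold without replicate 2 (0.93). Rspo1 was lost without replicate 2 (adjusted p = 0.0858), and the pathway count was 1 up with normexp and loess. Among 48 TGF-beta and activin genes 2 were up and 3 down, median -0.10, while at an unadjusted p under 0.05 5 were higher and 18 lower. Inhba, a subunit of activin A (1.03), was among the increases, while Id2 (-1.36) and Id3 (-1.95), inhibitors of helix-loop-helix factors, and the ligand Tgfb2 (-1.08) fell. Inhba and Tgfb2 were under 2-fold without replicate 2 (0.90 and -0.90). Id1 had -0.82, Bmp4 -0.52 and Smad4 0.09, none called.

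CCN matrix proteins were called in both directions and IGF binding proteins downward. Ccn2 (2.47) and Ccn1 (2.06), both targets of YAP and TGF-beta signalling, rose, and Ccn4 fell (-1.43). Of the binding proteins Igfbp5 (-1.04) and Igfbp1 (at least 1.67-fold lower) fell, and Igfbp7 had 0.06, Igfbp6 -0.30 and Igfbp4 -0.37. In all, 2 of 18 genes of this list were up and 3 down, median -0.17, with 4 higher and 6 lower at an unadjusted p under 0.05. With normexp and loess 1 was down, and Igfbp5 was under 2-fold without replicate 2 (-0.92), and its second probe had -1.40 and was not called (adjusted p = 0.114). Of 54 phosphoinositide and calcium genes 6 were up and 1 down (median 0.22), Pik3cb being named after its value was seen: the inositol trisphosphate kinase Itpka had 2.54, the exchange factor Rasgrp3 1.81 with its control above background on 1 array, the phospholipases Plcd1 1.25 and Plcd3 1.13, the kinase Pik3cb 1.07 (a second probe at 0.86 not called), and the calcium channel Ryr1 at least 2.08-fold more, while the inhibitor Pik3ip1 fell (-1.63). Of 19 angiotensin, natriuretic peptide and endothelin genes Nppb rose (1.23) and Agtr2 fell (1 up and 1 down, median 0.07), and Edn1 had 0.57 and Ece1 0.78.

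Prostaglandin genes were mostly on the lower side among those called. Ptgfr, the receptor of prostaglandin F2 alpha, had signals of 19.1 and 15.8 in the MAA channels against 186 and 153 in the control channels, the MAA signal being well above background on 1 array, and a log2 ratio of -3.28. The breakdown enzyme Hpgd (at least 1.63-fold lower), the receptor Ptger2 (at least 1.02-fold lower) and the thromboxane receptor Tbxa2r (-1.06) were also called down. The prostacyclin receptor Ptgir was called up (1.69), and the synthase Ptgs1 had -0.16. That makes 1 up and 4 down of 19, with a median of -0.11 and, at an unadjusted p under 0.05, 6 higher and 6 lower, and the decreases were 1 with normexp and loess and 2 without dim probes. Without replicate 1 they were 2, since Ptger2 (adjusted p = 0.0525) and Tbxa2r (-0.89) were lost, and Ptger2 was also lost without replicate 2 (adjusted p = 0.0612).

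Chemokine and cytokine genes changed in both directions. Of 128 measured ligands and receptors 17 were up and 8 down, with a median of -0.04, and of the 32 chemokines 5 were up and 5 down. The chemokines called up were Cxcl10, Ccl17 (2.02), which acts on CCR4, and Cxcl3 (1.96, with 3.11 and 0.82 on the arrays), Cx3cl1 (1.43) and Ccl2 (1.30), which draws monocytes. Those called down were Cxcl5 (-1.53), Cxcl12 (-1.5), Ccl8 (-1.34), Cxcl1 (-1.30) and Ccl11 (-1.03). Cxcl12, a chemokine of stromal cells, had signals of 35600 and 41800 in the MAA channels against 109000 and 109000 in the control channels. Receptors called up included the decoy receptor of interleukin 1, Il1r2 (at least 3.99-fold), Il7r (at least 1.76-fold) and Ccr7 (2.27, control above background on 1 array), and a second probe of Il7r had 0.81 and was not called. Other increases were of Il6 (1.18), Tslp (1.55) and Kitl (1.16), and Il1rl1, the receptor of interleukin 33, fell (-1.48). Csf1 had 0.25 and Il6st 0.05. With normexp and loess 7 were up and 4 down. Cxcl3 was under 2-fold without replicate 1 (0.82) and Ccl11 without replicate 2 (-0.98). Second probes of Kitl (1.14, adjusted p = 0.0361) and Il1rl1 (-0.77) were not called, while another of Il1rl1 was (-1.63). The members named here beyond Cxcl10, Ccl17, the receptors called up, Csf1 and Il6st were chosen after their values were seen.

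Cxcl10 had the smallest adjusted p of the genes named here together with Gch1, and the window before its start is shown for the interferon response core and the AP-1 site (chr5:92348890-92349139, minus strand, RefSeq, GRCm38.p6).
Cxcl10: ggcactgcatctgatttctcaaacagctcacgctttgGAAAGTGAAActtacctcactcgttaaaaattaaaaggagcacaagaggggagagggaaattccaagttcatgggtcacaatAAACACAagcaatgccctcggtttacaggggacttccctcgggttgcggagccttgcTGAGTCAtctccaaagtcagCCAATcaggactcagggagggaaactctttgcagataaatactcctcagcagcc
It held the core and, further on, an H1 box, an AP-1 site and a CCAAT box. The core was in 2.98% of all windows and in 3.33% of windows of genes called up, and the AP-1 site in 6.75% and 5.32%.

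Interferon-inducible genes were called down more often than up, unlike Cxcl10. Of 59 measured, 10 were down and 3 up, while 21 were lower and 14 higher at an unadjusted p under 0.05 in limma. The median was close to that of all genes, -0.09 against -0.02, or -0.02 against 0.01 with normexp and loess. The guanylate-binding proteins Gbp2b (-2.08), Gbp2 (-1.95) and Gbp3 (-1.80) fell, and Ifi205 (-1.33), Ifit1 (-1.30), Ifi202b (-1.26), Ifi204 (-1.22), Oasl2 (-1.17) and Tgtp1 (-1.13) were also called down, while Gbp6 was called with no channel well above background. The call of Gbp6 was lost without replicate 1, with a log2 ratio of -1.07. A second probe of Ifi205 had 0.20 and one of Tgtp1 -0.75, neither called. The deubiquitinating enzyme of ISG15, Usp18 (1.79), Oasl1 (1.22) and Oas1d (at least 2.68-fold) were called up, and the transcription factor Irf1 (0.18) and Ifitm3 (-0.13) were not called. Oasl1 was lost without replicate 1 (1.46, adjusted p = 0.0320) and without replicate 2 (0.97). Several of these genes have close relatives whose RNA a probe may also bind, which was not tested. The members of this list beyond Oas1d, the Gbp genes, Ifi205, Usp18, Irf1 and Ifitm3 were singled out with their values known. In the MHC list 4 of 40 genes were up and 2 down (median 0.15): H2-Oa (2.57, another probe 3.07), the invariant chain Cd74 (1.63), H2-DMa (1.48) and the immunoproteasome subunit Psmb9 (1.24) rose, Psmb10 fell (-1.09), H2-T24 was at least 1.33-fold lower and B2m had 0.45.

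Toll-like receptors and their partners had several decreases. Of 13 measured 5 were down and none (0) up by limma (1 at an unadjusted p under 0.05): Ly96, the partner of TLR4 that binds lipopolysaccharide, Tlr7 (-1.82), Cd14 (-1.5), Tlr3 (-1.31) and Tlr2 (-1.02). Ly96 had signals of 445 and 407 in the MAA channels against 1660 and 1450 in the control channels and a log2 ratio of -1.87. Tlr2 was under 2-fold without replicate 1 (-0.93). Of the 13 transducers 0 were called by limma, while 7 were lower and 3 higher at an unadjusted p under 0.05, with -0.74 for Irak1, -0.74 for Nfkb1 and -0.17 for Nfkbia. Over the 26 genes the median was -0.27, and the difference between receptors and transducers was not tested.

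Among adhesion genes the protocadherins had the highest share of decreases of the lists described, 43.6%. Most of these cadherin-related proteins of the cell surface are encoded in neighbouring alpha, beta and gamma clusters, and the list also holds 9 genes outside them. Of 39 protocadherins 17 were down and none (0) up by limma (0 also at an unadjusted p under 0.05), with a median of -0.64 at 5 mM 8 h and -0.22 with normexp and loess, where 9 were down. Of these, 16 were among the 22 measured genes of the beta cluster, whose median was -1.40 (-1.42 on replicate 1 and -1.31 on replicate 2). Pcdhb17 had signals of 1760 and 1540 in the MAA channels against 4430 and 4850 in the control channels and a log2 ratio of -1.49, and Pcdhb15 726 and 613 with MAA and 2090 and 1800 without and a log2 ratio of -1.54. Each MAA signal was below each control signal in these genes, both of which were chosen after their values were seen. The largest measured decreases were of Pcdhb19 (-2.14), Pcdhb21 (-1.96) and Pcdhb20 (-1.64), and Pcdhb21 was lost without replicate 2 (adjusted p = 0.0639).

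Outside the beta cluster 1 protocadherin was called. In the gamma cluster 1 of 5 was down and 3 were lower at an unadjusted p under 0.05, Pcdhga1 (-1.08, named after its value was seen, -0.78 without replicate 1), and Pcdhga7 had -0.28. None was called by limma among 3 alpha genes (0, and 0 at an unadjusted p under 0.05) or among 9 protocadherins outside the clusters (0, with 2 lower at that p), where Pcdh7 had -0.61 and Pcdh18 -0.22. Of the beta genes 7 had no channel well above background, and 2 of these, Pcdhb11 and Pcdhb12, were among the calls, so no fold is given for them. The genes of the beta cluster are alike in sequence, and how far 1 transcript reached several probes was not tested. The list's medians in the other conditions were -0.49 at 5 mM 3 h, -0.83 at 5 mM 24 h and -0.24 at 1 mM 8 h.

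Of 10 genes of linker histones, which bind the DNA where it enters and leaves the nucleosome, 4 were up, and the other 6 did not pass even at an unadjusted p under 0.05. H1f0, the replacement linker histone of cells that stop dividing, had signals of 56000 and 43700 in the MAA channels against 18900 and 14900 in the control channels and a log2 ratio of 1.56, with other probes at 1.54 and 1.62. H1f2 had 7540 and 6510 in the MAA channels against 2680 and 2110 in the control channels, a log2 ratio of 1.56. In both genes MAA and control signals did not overlap. H1f3 was dimmer, at 249 and 198 in the MAA channels against 41.1 and 40.5 in the control channels (2.44), and its second probe had 0.26 and was not called. H1f10 had 1.65. Among 32 core histone genes only H2bc21 was called (1.20), and H3f3a (0.36), H3f3b (0.52) and H2az1 (-0.29) were not. The difference between linker and core histones was not tested. Over all 42 histone genes 5 were up and 0 down in limma (8 lower at an unadjusted p under 0.05), with a median of 0.12.

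**Figure D4:**
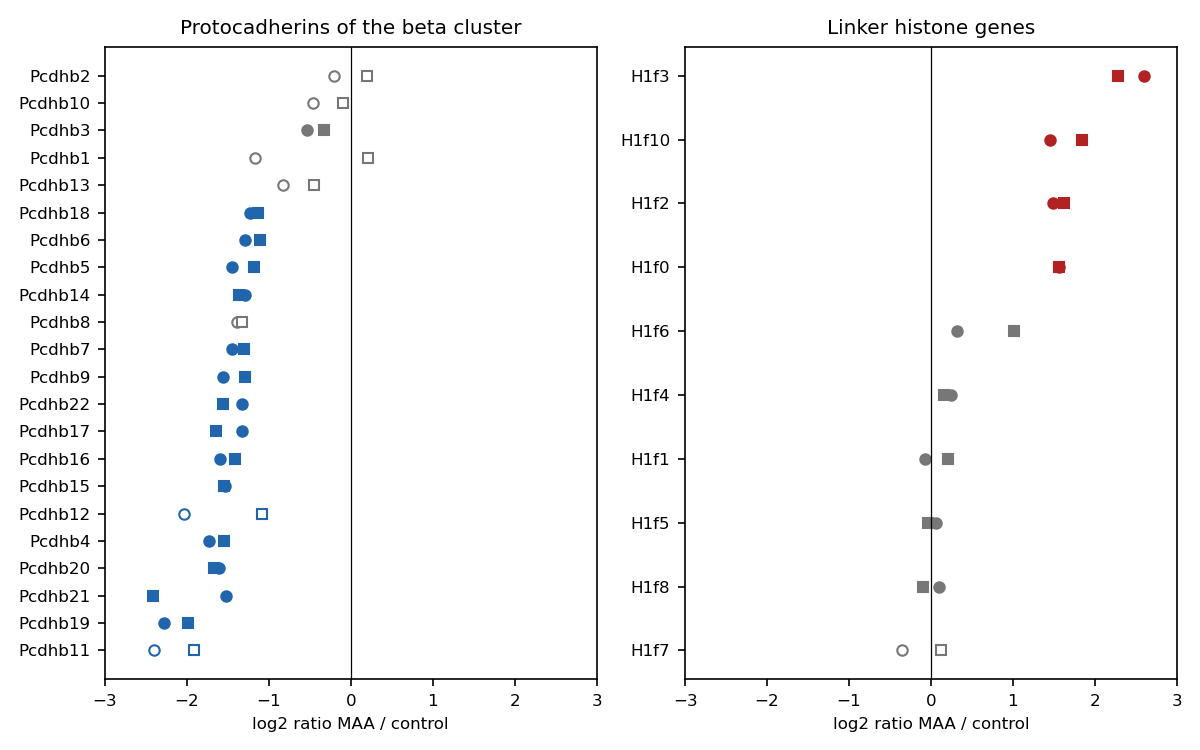
Log2 ratio of MAA over control for the measured protocadherins of the beta cluster (left) and the linker histone genes (right), with circles for replicate 1 and squares for replicate 2. Blue was called down, red called up and grey not called, and hollow markers had no channel well above background on either array. The 16 beta protocadherins called down lie to the left of 0 on both arrays, and the 4 linker histones called up to the right.

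The windows before H1f2 (chr13:23738557-23738806) and H1f3 (chr13:23554782-23555031), both on the plus strand of chromosome 13 in GRCm38.p6 from RefSeq, are shown because these linker histone genes lie on the same chromosome and both rose on the probes used.
H1f2: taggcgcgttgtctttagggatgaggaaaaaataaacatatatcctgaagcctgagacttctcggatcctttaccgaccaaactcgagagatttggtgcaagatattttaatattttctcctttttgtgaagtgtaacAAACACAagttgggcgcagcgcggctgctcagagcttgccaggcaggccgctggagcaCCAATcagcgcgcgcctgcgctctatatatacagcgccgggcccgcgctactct
H1f3: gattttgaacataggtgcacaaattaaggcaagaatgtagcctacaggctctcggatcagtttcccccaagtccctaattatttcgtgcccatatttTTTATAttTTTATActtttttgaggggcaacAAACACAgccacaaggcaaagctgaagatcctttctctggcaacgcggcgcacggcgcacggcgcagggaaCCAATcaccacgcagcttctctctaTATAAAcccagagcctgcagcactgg
Both hold an H1 box and a CCAAT box in the same order, and H1f3 also has TATAAA. The windows of H1f0 and H1f10, which were called up as well, held neither of these boxes. The H1 box was found in 6.25% of all windows, CCAAT in 33.9% and TATAAA in 12.4%. Over the windows of called genes, 480 of 653 genes called up and 282 of 392 called down had a window, against 11990 tested genes not called. The GC box was in 53.1% of windows of genes called up, 30.6% of those called down and 47.5% of those not called. CCAAT was in 39.1%, 29.8% and 35.1%, TATAAA in 11.3%, 11% and 10.7%, the cAMP response element in 2.16%, 1.83% and 2.10% (1.55% of all windows), and the H1 box in 4.33%, 6.02% and 5.08%. AP-1 sites were in 7.33% of windows of genes called down and 6.06% of those not called, and the interferon core in 3.66% and 2.96%. These shares were not tested, and a gene with several starts counts once for each.

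HOX genes were lower more often than higher, and histone deacetylases were not called. None of 17 histone deacetylases was called by limma (0, median 0.16), 7 being higher and 3 lower at an unadjusted p under 0.05, with 0.49 for Hdac1, -0.04 for Hdac2 and 0.33 for Sirt2. HOX genes, which set position along the body axis, had 6 of 37 down and none (0) up in limma (3 at an unadjusted p under 0.05, where 18 were lower), with a median of -0.30 (-0.12 with normexp and loess). Hoxc9 was bright, with 9520 and 8740 in the MAA channels against 23500 and 20000 in the control channels and a log2 ratio of -1.25, and Hoxd4 (-1.55), Hoxa10 (-1.15), Hoxb2 (-1.09), Hoxc8 (-1.05) and Hoxa4 (-1.05) also fell. The calls came from all clusters, 2 of 11 in Hoxa, 1 of 10 in Hoxb, 2 of 8 in Hoxc and 1 of 8 in Hoxd. Hoxa4 was under 2-fold without replicate 1 (-0.90) and Hoxb2 without replicate 2 (-0.92), and a second probe of Hoxa4 had -0.15. Hoxc6 (-0.81) and Hoxa7 (-0.09) were not called.

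Of 44 nuclear receptors 3 were up and 1 down (median -0.04). The estrogen receptors differed in direction, Esr2 being at least 1.51-fold higher and Esr1 lower (-1.31), a call lost without replicate 2 (-1.03, adjusted p = 0.0539), with a second probe at -0.40 that was not called. Nr2f2 had -0.26. Among 17 clock genes 2 were up and 2 down, median -0.24: the activator Arntl rose (1.41), as did Hlf (1.04), while Bhlhe41 (-1.19, a second probe at -0.09 not called) and the output factor Dbp (-1.08) fell. Hlf was under 2-fold without replicate 2 (0.96) and Dbp without replicate 1 (-0.95), and Nr1d2 (-0.78) and Tef (-0.57) were not called. Cell cycle regulators had 2 of 28 up and 0 down in limma (5 at an unadjusted p under 0.05, median 0.18), the transcription factor E2f2 (1.48) and Gadd45g (1.02, 0.99 without replicate 1), with -0.43 for Cdk4. Of 42 genes of DNA replication and mitosis 0 were called by limma (median -0.12), and 1 was down with normexp and loess, after centring or without replicate 1, while at an unadjusted p under 0.05 18 were lower and 11 higher. Of its 22 genes of mitosis 14 were lower and 2 higher at that p (median -0.35), and of 20 genes of replication 4 were lower and 9 higher (median 0.00), with -0.13 for Pcna and -0.19 for Mcm7.

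In the BCL2 family 2 of 18 were up and 1 down (median -0.07). Pmaip1, a promoter of apoptosis also called Noxa, rose (1.37), and Bcl2, an inhibitor of apoptosis, had 1.29 on the probe used and 0.22 on another that was not called. Bmf, which promotes apoptosis, had -1.20 with its MAA signal above background on 1 array, a second probe at -0.52 and no call without replicate 2 (-0.85, adjusted p = 0.115), and Mcl1 had 0.24.

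Matrix genes were called in both directions. Col3a1, a fibrillar collagen chain, had signals of 50300 and 68700 in the MAA channels against 186000 and 218000 in the control channels and a log2 ratio of -1.78, with another probe at -1.55. Collagen chains in all had 3 of 36 up and 3 down (median -0.04), and the main chains Col1a1 (-0.21), Col1a2 (-0.66) and Col5a2 (-0.35) were not called. Col2a1 (-1.55, second probe -0.17) and Col17a1 (-1.12) were the other decreases. The increases, Col11a1 (1.12), Col5a3 (1.01) and Col11a2 (1.00), were close to 2-fold, and other probes of these genes had 0.19, -0.04 and -0.28. Only 1 of the 3 was called without replicate 2, after centring or with normexp and loess; without replicate 2, Col5a3 had 0.79 and Col11a2 0.93. Small leucine-rich proteoglycans, which bind collagen fibrils, had 4 of 14 down, none (0) up in limma (1 at an unadjusted p under 0.05) and a median of -0.43, with 12 of 14 below 0. That median was -0.10 with normexp and loess, -0.92 without dim probes and -0.87 without replicate 2. Omd, osteoglycin (Ogn, -1.47) and decorin (Dcn, -1.24) fell, Epyc was called with no channel above background, and Fmod (-0.92), Bgn (-0.10) and Prelp (0.77) were not called. Epyc was lost without replicate 2 (adjusted p = 0.0793), and second probes of Epyc (-0.55) and Prelp (-0.43) were not called.

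Proteases of the matrix and their inhibitors had 1 of 39 up and 2 down (median -0.14). The 34 proteases alone had a median of -0.24. Mmp14, a membrane protease that activates others, fell (-1.80), as did Mmp23 (-1.35), and Mmp17 rose (1.59). Adamts5 had -0.23, Timp2 -0.10 and Timp3 0.47. Serpins, a family of protease inhibitors, had 4 of 50 up and 5 down, median -0.04, with Serpini1 (1.83) and Serpinb10 (1.04) among the increases and Serpind1 (at least 2.34-fold lower), Serpina11 (-1.43, MAA signal above background on 1 array) and Serpinb9 (-1.34) among the decreases. The collagen chaperone Serpinh1 had -0.12. With normexp and loess 2 serpins were up and 2 down, and without replicate 2 there were 2 up. Serpinb10 was named after its value was seen and had 0.80 without replicate 2.

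Integrins, laminins and cadherins had 3 of 55 up and 3 down, median -0.03. Cdh15, the cadherin of muscle cells, rose (2.89, control above background on 1 array), with Itgae (1.60) and Itga7 (1.13), which was under 2-fold without replicate 2 (0.96). Cdh26 (-1.98), Lama2 (-1.34, MAA signal above background on 1 array) and Itgb2 (-1.03) fell, Itgb2 being under 2-fold without replicate 1 (-0.90). Lamc1 had 0.79, Itgb1 -0.07 and Cdh11 -0.60, and with normexp and loess none of the list was down (0). Actin and contractile genes had 7 of 31 up, none (0) down in limma (0 also at an unadjusted p under 0.05) and a median of 0.30, or 0.16 with normexp and loess. They included the calponins Cnn1 (1.19) and Cnn2 (1.09), the coactivator Fhl2 (1.46), vinculin (Vcl, 1.07), Vill (1.88) and villin (Vil1, at least 1.79-fold). Vil1 was lost without replicate 1 (adjusted p = 0.0931) and without replicate 2 (0.0351), and smooth muscle actin (Acta2) had 0.48. Vcl was chosen with its value known, and a second probe of it had 0.95.

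Increases among genes of glucose and lactate handling were mostly of transporters. Of 10 transporters 4 were up: Slc2a4, Slc2a6 (2.44), Slc2a3 (1.5) and the fructose transporter Slc2a5 (1.22). Of 21 glycolysis genes only the hexokinase Hk1 was called (1.03), other probes of it having 0.91, 0.99, 0.47 and 1.07. Lactate dehydrogenase Ldha had -0.09, Pgk1 0.13 and Pgam1 -0.03. Slc16a10, an aromatic amino acid carrier of the monocarboxylate family, was at least 1.29-fold higher, and a second probe of it had 0.20. Over the 39 genes of the list 6 were up and 0 down in limma (5 at an unadjusted p under 0.05), with a median of 0.12, and 2 were up with normexp and loess. Without replicate 2 the increases were 3, since Slc2a3 (adjusted p = 0.0337), Hk1 (0.90) and Slc16a10 (adjusted p = 0.0487) were lost.

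Stress and lipid genes were called in both directions. Of 47 glutathione and oxidative stress genes 2 were up and 3 down, median 0.02: thioredoxin reductase Txnrd1 rose (1.18), Gpx6 was at least 1.9-fold higher and lost without replicate 2 (adjusted p = 0.0847), and the glutathione transferases Gsta1 (-1.17), Gsta2 (-1.36) and Gsta3 (-1.17) fell. The Gsta genes are close relatives, and whether their probes share transcripts was not tested. Heat shock and unfolded protein response genes had 1 of 33 up, Chac1 (1.15), and 1 down, Hspa12b (-1.05, -0.93 without replicate 1), with a median of 0.09. The chaperone Hsp90aa1 had 0.91 and was called without replicate 1 (1.25). Of 32 genes of fatty acid use 0 were up in limma (7 at an unadjusted p under 0.05) and 1 was down, Acot2 (-1.49, with -2.34 and -0.64 on the arrays), which was lost without replicate 1 (-0.64, adjusted p = 0.153), and the median was 0.08, with -0.87 for Fasn and 0.06 for Lpl. ABC transporters had 3 of 43 up and 2 down (median 0.13), with Abcd2 (1.62) and Abca5 (1.41) beside Abcb9 and Abca9, and Abca12 at least 1.56-fold lower.

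Many genes of excitable cells and of the germline were dim. Of 108 ion channel genes, 58 had no channel of either array well above background, 6 were up and 2 down, and the median was -0.04. The potassium channel subunits Kcnab3 (2.09) and Kcnj4 (1.46) rose and Kcnk2 fell (-1.44), and a second probe of Kcnj4 had -0.22. With normexp and loess 3 ion channel genes were up. Neuronal and synaptic genes had 1 of 43 up, Stmn4 (1.85), and 1 down, with a median of 0.02 (-0.01 after centring) and -0.86 for Elavl2. Germline genes had 3 of 27 up, none (0) down in limma (2 at an unadjusted p under 0.05) and a median of 0.00. They were Tex14 (1.61), Stra8 and Nanos2, the last with no channel above background, and the count was 1 without replicate 1 and 1 without replicate 2, where Stra8 (adjusted p = 0.0792 and 0.0910) and Nanos2 (0.103 and 0.0478) were lost, and 0 with normexp and loess.

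Called genes were in part neighbours on the chromosomes, by the order of measured genes in RefSeq. Runs of the same call held 79 of the 653 genes called up and 64 of the 392 called down. The longest were of decreases, 9 genes from Pcdhb14 to Pcdhb22 and 4 from Pcdhb4 to Pcdhb7. The flavin monooxygenase Fmo1, which oxidizes drugs and other amines, was called down as well, with signals of 724 and 684 in the MAA channels against 3650 and 3190 in the control channels and a log2 ratio of -2.28. Runs of 3 decreases were Ifi204, Ifi202b and Ifi205, then Gbp3, Gbp2b and Gbp2, and Epc2, Kif5c and Lypd6b. Runs of 3 increases were Tekt1, Smtnl2 and Ggt6, then Best1, Rab3il1 and Fads3, and Klf1, Dnase2a and Mast1. These runs were looked for after the calls were known, and no chance rate was computed.

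Runs of neighbours aside, many of the genes named were dim or close to 2-fold, and their calls ended in other settings while the sign stayed the same. With normexp and loess the following genes, of those described above and those of the contrasts below, were no longer called: Abca12, Abcb9, Abcd2, Acot2, Bhlhe41, Bmf, Ccl11, Ccl8, Ccr7, Cdh26, Col11a2, Col17a1, Col5a3, Cxcl3, Epyc, Erbb3, Esr1, Esr2, Gbp6, Gpx6, Grb7, Gsta2, H2-T24, Hk1, Hoxa4, Hoxc8, Hpgd, Hsd17b1, Hsd17b11, Ifit1, Igfbp1, Igfbp5, Il1r2, Il6, Il7r, Inhba, Itga7, Itgb2, Kcnj4, Krtap1-5, Lama2, Nanos2, Notum, Nppb, Oas1d, Oasl1, Orm2, Pcdhb11, Pcdhb12, Pcdhb19, Pcdhb4, Pcdhb7, Pcdhga1, Ptger2, Ranbp3l, Rasgrp3, Rspo1, Ryr1, Serpina11, Serpinb10, Serpind1, Shbg, Slc16a10, Slc2a3, Slc2a5, Spry4, Stmn4, Stra8, Tbxa2r, Tex14, Tfr2, Tgfa, Thy1, Tlr2, Tmem178, Vil1, Wnt11 and Wnt6. After centring each array on its median Col11a2, Col5a3, Gadd45g, Hk1 and Wnt11 were lost, and with the slide as a block Acot2, Ccl11, Cxcl3, Hoxc8, Inhba, Nanos2, Ranbp3l, Spry4, Stra8, Tgfb2, Tlr2, Vil1 and Wnt11. Of the other probes given, those of Bhlhe41, Epyc, Esr1, Igfbp5, Il7r, Prelp, Slc16a10, Spry4 and Thy1 had no channel well above background. The same held for those of Gata6 at -0.40, Hk1 at 0.47 and Erbb3 at 0.62. Those of Col11a1 and Tgfa had no control channel well above background, so all these probes measure the change poorly. Some called probes of these genes share this limit. That of Epyc had no channel well above background, and those of Il7r, Slc16a10, Tgfa and Thy1 no control channel. The calls of Slc2a4, Gch1, Cxcl10, Areg, Angpt2, Cebpd, H1f0, H1f2, Ly96, Col3a1 and Hoxc9 were kept in these settings and without either array.

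From 3 h to 8 h in 5 mM MAA, the detoxifying enzyme Cyp1a1 and the keratin-associated protein gene Krtap1-5 gained in ratio of MAA over control. The inhibitors Id2 and Id3 and the ERK pathway inhibitor Spry4 had lower ratios at 8 h than at 3 h. The difference of 8 h minus 3 h was past the test in limma (a contrast of the conditions, adjusted p under 0.05) for 2101 of 41095 probes (5.11%), with 1150 higher at 8 h and 951 lower (54.7% higher). After centring each array on its median, 659 passed and 32.3% of them were higher, and with the slide as a block 3395 passed. The count was 0 in limma on the 6 arrays at 5 mM alone (6062 at an unadjusted p under 0.05). Of the 2280 probes called at 8 h and tested, 712 (31.2%) passed; they were picked by the 8 h values that also enter the difference, so this share and its direction depend on the choice, here and in the next contrasts. Without replicate 1 at 8 h 323 probes passed, and without replicate 2 229.

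Cyp1a1, a monooxygenase induced through the aryl hydrocarbon receptor, had log2 ratios at 3 h of -0.33 and -0.82 and, at 8 h, of 2.58 and 2.46. The difference was 3.09 (SE 0.27, adjusted p = 0.00331), and 3.28 between the arrays of both times on slide 3. For Id3 the 3 h arrays gave 0.03 and 0.06 and the 8 h arrays -2.07 and -1.83, a difference of -1.99 (SE 0.108, adjusted p = 0.00122), and -1.89 on slide 3. The arrays of these times did not overlap in either gene, but both were picked for the size of this difference on these arrays. Id2 differed by -2.11 (-2.32 on slide 3), Krtap1-5 by 2.95 (3.02), Tex19.1, a testis-expressed gene, by 2.47 (2.68) and Spry4 by -2.34 (-2.10). Tex19.1 lost the call after centring (adjusted p = 0.0688), without replicate 1 at 8 h (0.109) and without replicate 2 (0.187), and Spry4 without replicate 1 (0.0918) and replicate 2 (0.134). The differences of Krtap1-5 and Tex19.1 were 1.48 and 1.32 with normexp and loess. In a fit of the 6 arrays at 5 mM alone none of these 6 genes passed, with adjusted p from 0.0766 to 0.146.

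From 8 h to 24 h, the glutathione transferase Gsta2 and Ranbp3l, both called down at 8 h, gained in ratio, and the matrix protein Ccn1, called up at 8 h, lost. The difference of 24 h minus 8 h was past the contrast for 3669 of 41098 probes (8.93%), with 1893 higher at 24 h and 1776 lower (51.6% higher), against 64.0% of 1332 after centring and 4856 with the slide as a block. The count was 133 on the 6 arrays at 5 mM alone. Of the 2282 probes called at 8 h, 669 (29.3%) passed. Without replicate 1 at 8 h 1122 probes passed, and without replicate 2 1242.

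Gsta2 had log2 ratios at 8 h of -1.41 and -1.31 and, at 24 h, of 1.84 and 1.82, a difference of 3.20 (SE 0.197, adjusted p = 0.000943), and 3.14 on slide 3, which held arrays of both times. For Ccn1 the 8 h arrays gave 1.99 and 2.13 and the 24 h arrays 0.19 and -0.02, a difference of -1.98 (SE 0.134, adjusted p = 0.000943), and -2.15 on slide 3. Olr1, the receptor of oxidized low-density lipoprotein, had 1.51 and 1.56 on the 8 h arrays and 3.99 and 4.11 on the 24 h arrays. The values of these times did not overlap in any of the 3 genes, which were picked for the size of this difference. The difference of Olr1 was 2.52 (2.55 on slide 3), that of Ranbp3l 2.76 (2.51), that of Ccdc96 -1.69 (-1.92) and that of Dock4, an activator of small GTPases, -1.71 (-1.5). Dock4 lost the call after centring (adjusted p = 0.0567), with the slide as a block (0.0528), without replicate 1 at 8 h (0.135) and in the 6 arrays at 5 mM alone (0.139), where Ccdc96 was lost as well (0.0546), and its other probes had 0.36 and 0.77 at 8 h. The differences of Gsta2 and Ranbp3l were 1.58 and 1.66 with normexp and loess. Ranbp3l was a decrease at 8 h (-1.07) whose call was lost without replicate 1 (-0.89, adjusted p = 0.191) and without replicate 2 (-1.25, adjusted p = 0.0747).

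At 8 h, the growth factor Fgf7 and the clathrin uncoating factor Dnajc6 had lower ratios at 5 mM than at 1 mM, and Cxcl10 and Gch1 had higher ones. The difference of 5 mM minus 1 mM was past the contrast for 4165 of 41093 probes (10.1%), with 1993 higher and 2172 lower at 5 mM (47.9% higher), against 30% of 1491 after centring and 6289 with the slide as a block. The count was 0 in limma on the 4 arrays at 8 h alone (7437 at an unadjusted p under 0.05). Of the 2282 probes called at 5 mM, 1352 (59.2%) passed. Both concentrations were set against 8 h controls, so their ratios are given side by side. Without replicate 1 at 5 mM 1438 probes passed, and without replicate 2 1554.

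Fgf7, a fibroblast growth factor that acts on epithelial cells, had signals of 4060 and 3610 in the MAA channels against 15500 and 14100 in the control channels at 5 mM. Its log2 ratios at 5 mM were -1.93 and -1.97, and at 1 mM 0.08 and -0.11, a difference of -1.93 (SE 0.113, adjusted p = 0.000655). For Cxcl10 the 5 mM arrays gave 3.63 and 3.52 and the 1 mM arrays 1.13 and 1.20, a difference of 2.41 (SE 0.105, adjusted p = 0.000436). The arrays of the concentrations did not overlap in either gene, but both were picked for the size of this difference on these arrays. Within slide 2 and within slide 3, each of which held both concentrations, the differences were -2.01 and -1.85 for Fgf7 and 2.50 and 2.32 for Cxcl10. Gch1 differed by 2.24 (2.31 and 2.18 within the slides), Fam222a by 2.26 (2.34 and 2.18), Dnajc6 by -2.07 (-2.08 and -2.06) and Cebpd by -1.95 (-1.97 and -1.94). Fam222a had a difference of 1.26 with normexp and loess and lost the call without replicate 1 at 5 mM (adjusted p = 0.0651), and in a fit of the 4 arrays at 8 h alone each of the 6 genes had an adjusted p of 0.135.

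**Figure D5:**
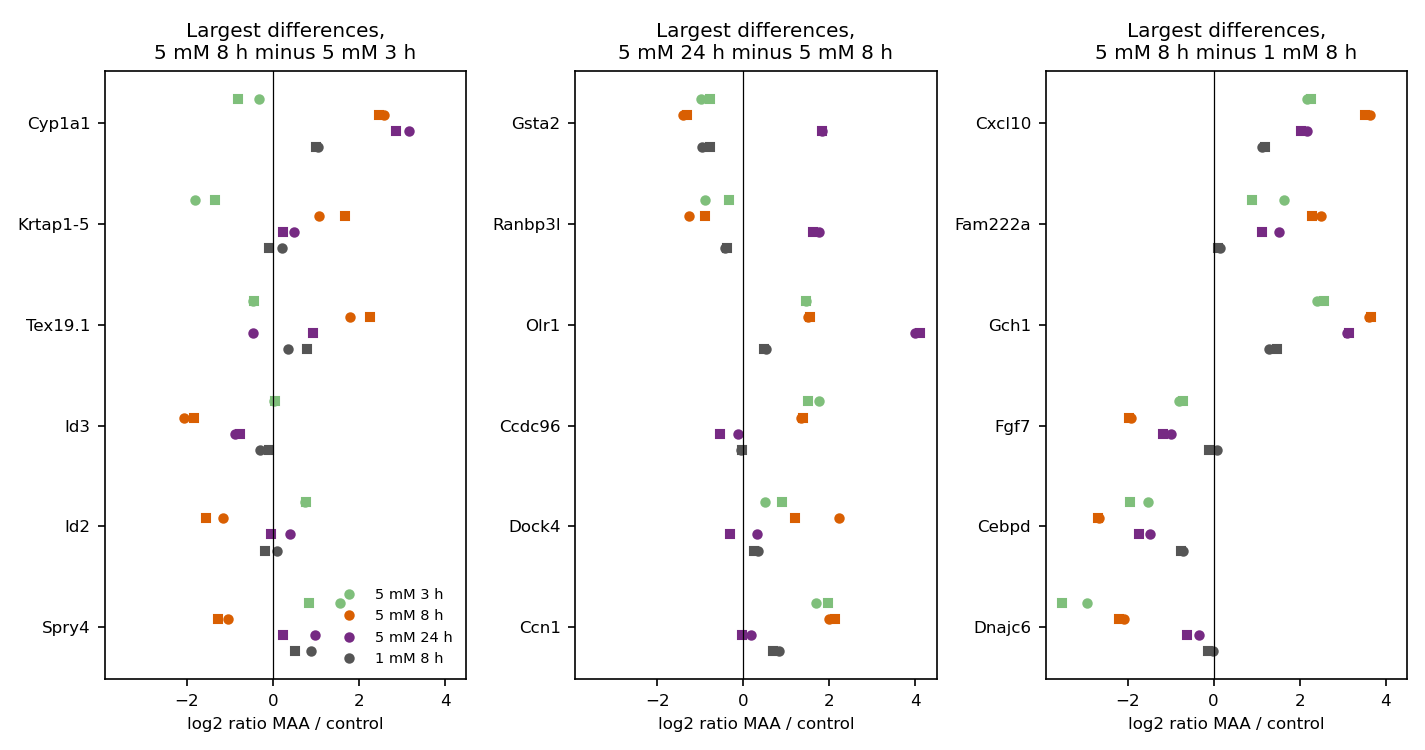
Log2 ratio of MAA over control for the genes with the largest differences between 8 h and 3 h (left), 24 h and 8 h (middle) and 5 mM and 1 mM at 8 h (right), with circles for replicate 1 and squares for replicate 2. Green is 5 mM 3 h, orange 5 mM 8 h, purple 5 mM 24 h and grey 1 mM 8 h, and the vertical line is no change. The orange markers lie apart from those of the condition compared in each panel, and the genes were picked for that difference.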

How the data were processed

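RNA pools of 3 cultures had been labelled with a pair of fluorescent dyes and hybridized to whole mouse genome arrays, 12 arrays on 3 slides of 4, which carried arrays of several conditions each. The authors scanned the arrays with Agilent Feature Extraction 9.5.3.1, and the deposited signal intensity values had been background-subtracted, detrended and balanced between the dyes of each array (linear and LOWESS normalization), with low signals replaced by substitute values. Raw intensity and local background were deposited beside them, as were other columns, the flags and positions of the spots. The deposited value table holds log10 ratios of the channels, which match the scanner output to its rounding once turned to MAA over control.

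From the processed signals log2 ratios of MAA over control were computed, with green as MAA on replicate 1 and red on replicate 2, and not centred. Control spots, outlier spots (136 on replicate 1 and 149 on replicate 2) and 50 probes in rows 386 to 394 and columns 69 to 74 were left out, and spots of a probe were averaged. Symbols were given to 22147 of 41174 probes, 22072 of them by accession and 75 by symbol or synonym, which gave 16017 genes. limma 3.58.1 in R 4.3.3 (jsonlite 2.0.0 and, for data.table, version 1.17.8) was fitted to all 12 arrays with a coefficient for each condition, which left 6 residual degrees of freedom beside 1.52 of the prior, and 73 probes without values on every array of the condition were not tested. Differences between conditions were contrasts of that fit with Benjamini-Hochberg adjustment. The thresholds of 0.005 and 2-fold are those of the study's methods, whose own software for the test was not run. Each gene is given by its probe with the highest mean signal over the 12 arrays, and other probes of a called gene are given where they were not called, and in part where they were. Lower limits used channels scaled by Aquantile. The number of arrays limits the precision, and so do signals near background. Figures were drawn with Python 3.11.15, matplotlib 3.10.9, pandas 2.3.3 and numpy 2.4.6, and the fit was tested on simulated data.

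The genes named are the 10 largest increases and 10 largest decreases measured in every channel, the 5 largest lower limits in each direction, up to 6 called members and 3 bright members not called of each gene list, the 3 largest differences each way of each contrast, and all cell type markers, and some of them are not reported here. The members and the gene lists were chosen with earlier results of these data known. Lists are described by counts and medians, with no test of a list. Alternatives were normexp (offset 50) with loess, the deposited log10 values, centring, dim probes left out, outlier spots or the marked area kept, the replicate number or the slide as a block, the 6 arrays at 5 mM or the 4 arrays at 8 h alone, adjusted p with 2-fold, other probes of a gene, and leaving out each array of 5 mM 8 h.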

Additional observations from a re-analysis of the deposited data

Results flagged for a closer look

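The following differed between conditions by a limma contrast of the 12 arrays with an adjusted p under 0.05, which tests the difference itself and not whether a call was made in 1 condition only. For 2101 probes the log2 ratio at 5 mM 8 h differed from that at 3 h, for 3669 that at 24 h differed from 8 h, and for 4165 that at 5 mM differed from 1 mM at 8 h. These counts depend on the fit: they were 0 and 133 on the 6 arrays at 5 mM alone and 0 for the concentrations on the 4 arrays at 8 h alone.

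Between 3 h and 8 h, Cyp1a1 (3.09 higher at 8 h on the log2 scale), Krtap1-5 (2.95) and Tex19.1 (2.47) had the largest differences upward among genes called at 8 h and measured in every channel. Spry4 (-2.34), Id2 (-2.11) and Id3 (-1.99) had the largest downward. The log2 ratios at 24 h were 3.00 for Cyp1a1, 0.37 for Krtap1-5, 0.23 for Tex19.1, 0.61 for Spry4, 0.18 for Id2 and -0.82 for Id3. The differences of Krtap1-5 and Tex19.1 were 1.48 and 1.32 with normexp and loess.

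Between 8 h and 24 h, Gsta2 (3.20), Ranbp3l (2.76) and Olr1 (2.52) were higher at 24 h, and Ccn1 (-1.98), Dock4 (-1.71) and Ccdc96 (-1.69) lower. The differences of Gsta2 and Ranbp3l were 1.58 and 1.66 with normexp and loess. At 3 h the log2 ratio of Ccn1 was 1.83 and that of Ccdc96 1.63, near their values at 8 h of 2.06 and 1.37.

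Between the concentrations at 8 h, Cxcl10 (2.41), Fam222a (2.26) and Gch1 (2.24) were higher at 5 mM, and Dnajc6 (-2.07), Cebpd (-1.95) and Fgf7 (-1.93) lower. The difference of Fam222a was 1.26 with normexp and loess. The log2 ratio of Dnajc6 at 5 mM was -3.23 at 3 h, -2.15 at 8 h and -0.47 at 24 h.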

How the results depend on the processing

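Of 2282 calls the count was between 2200 and 2351 with the deposited log10 values, after centring, with outlier spots or the marked area kept and with the replicate block (2299), and 2330 with the slide as a block. It was 1029 with normexp and loess, 2062 without dim probes, 2221 with the 6 arrays at 5 mM alone and 2473 with an adjusted p under 0.05 and 2-fold. Without 1 of the arrays it was 2084 to 2135. The counts of the contrasts, 2101 for 8 h against 3 h, 3669 for 24 h against 8 h and 4165 for 5 mM against 1 mM, moved more. In this order they were 3832, 5568 and 6118 with the deposited log10 values, 659, 1332 and 1491 after centring, 4151, 5799 and 6680 without dim probes, and 504, 795 and 776 with a 2-fold difference required. For 8 h against 3 h the count was 3390 with normexp and loess, 3395 with the slide as a block and 0 with the 6 arrays at 5 mM alone in limma (6062 at an unadjusted p under 0.05), where 24 h against 8 h gave 133. For 5 mM against 1 mM it was 6289 with the slide as a block and 0 in limma on the 4 arrays at 8 h alone (7437 probes at an unadjusted p under 0.05). Without 1 array the contrasts gave 229 to 323, 1122 to 1242 and 1438 to 1554. The cause was not tested.

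The replicate numbers are also the dye orientations. Over 15 pairs of conditions the correlation of same-numbered deviations from the condition mean ran from 0.0774 to 0.514, with a median of 0.376, so each array went more with its own number than with the other. As 1 or more pairs were not over 0.1, the numbers were not taken to pair the arrays, and what the dyes and the pools each add was not tested. With the replicate block the contrasts gave 5269, 7410 and 8158 probes, and 193 of the 194 calls of named genes were kept. The call lost was that of Acot2 (-1.49, limma adjusted p = 0.0208). Cxcl3, which is outside the 194, was lost as well (1.96, limma adjusted p = 0.0177).

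Of these 194 calls, 118 were kept with normexp and loess, 190 with the deposited values, 189 after centring, 184 with the slide as a block, 188 with the 6 arrays at 5 mM alone, 173 without replicate 1 and 160 without replicate 2, and none (0) changed direction. Of 63 other probes of 53 called genes, 33 had the same call, 26 the same sign and no call, and 4 the opposite sign and no call: Kcnj4 (-0.22), Ifi205 (0.20), Col5a3 (-0.04) and Col11a2 (-0.28). Among lists with a median of at least 0.2 in size, the medians that moved by over 1.5 times with normexp and loess, beside those in the text, were those of the hedgehog pathway (-0.21 to -0.07), the clock genes (-0.24 to -0.13, and -0.08 without replicate 1), the phosphoinositide and calcium genes (0.22 to 0.07) and the neuronal markers (0.25 to 0.09). Medians nearer 0 depended on the array. Without replicate 1 those of the steroid synthesis genes, the serpins and the chemokines and interleukins went from -0.04 to 0.18. That of the ion channels went from -0.04 to 0.19. Without replicate 2 these medians were, in this order, -0.12, -0.23, -0.14 and -0.25. That of the matrix proteases and their inhibitors then went from -0.14 to -0.27. Without replicate 1 and without replicate 2, the median of the neuronal and synaptic genes was 0.19 and -0.13. That of the angiotensin, natriuretic peptide and endothelin genes was 0.17 and -0.07, and that of the nuclear receptors 0.04 and -0.18. The integrins, laminins and cadherins had 0.18 and -0.07, and the collagen chains -0.03 and -0.21. The median over all genes was -0.06 on replicate 1 and 0.15 on replicate 2. Without dim probes those of the protocadherins (-1.33), HOX genes (-0.45), Toll-like receptor genes (-0.45) and phosphoinositide and calcium genes (0.34) moved. Among medians nearer 0, that of the angiotensin, natriuretic peptide and endothelin genes was then 0.5. The MHC list had 0.4 and glucose and lactate handling 0.21. The collagen chains had -0.24, the matrix proteases and their inhibitors -0.35, the nuclear receptors -0.17 and the BCL2 family -0.18. Lists with a count of 0 had 1 call up for fatty acid use with the slide as a block or without replicate 2, and 1 down for glucose and lactate handling without replicate 2. Signal over background limits the folds of dim genes: 96 calls had no channel well above background.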
